A study of Mus musculus with 47 samples.

Results

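Cells named as precursors of type 2 conventional dendritic cells (pre-cDC2), grown from mouse bone marrow, were compared with cells named common dendritic cell progenitors (CDP). By these names the step is the one at which a progenitor becomes committed to the cDC2 lineage. Commitment itself was not tested. The comparison rests on 6 RNA-seq libraries out of 47 in the series: 3 of pre-cDC2 and 3 of CDP. All 6 were wild type, came from bone marrow cells cultured with the cytokine Flt3L, and carried no transduced construct. The age, sex and strain of the mice and the day of culture are not given in the sources used here. RNA of about 1500 to 10000 cells a library was amplified, and the series as a whole concerns enhancers of the transcription factor gene Irf8. Cultured MDP (the monocyte and dendritic cell progenitor), pre-cDC1 and cDC2, with 3 wild-type libraries each, entered the same model, and pre-cDC1 served as the nearest sister stage. The replicates are called biological in the design text, but nothing says whether they came from separate mice, so each p-value reflects how far these libraries scatter, which may be technical.

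Type 1 and type 2 conventional dendritic cells are antigen-presenting cells that share a progenitor. In mice, cDC1 depend on IRF8 and BATF3 and cross-present antigen to CD8+ T cells with particular efficiency, while cDC2 lean on IRF4, carry SIRPα and drive CD4+ T cell responses. Commitment is known to proceed through precursors that still divide, load MHC class II molecules and switch off stem cell genes.

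The identity of 2 of the 3 pre-cDC2 libraries is in dispute between the labels. Replicates 1 and 2 carry titles and a cell type label of cDC1, but their deposited files are named pre-cDC2; they were placed by file name. Title and file name agree for replicate 3, so list counts against CDP and pre-cDC1 are also given with pre-cDC2 replicate 3 alone. The library titles of cultured cDC1 and pre-cDC2 replicates 1 and 2 are exchanged relative to the file names, so the libraries whose files are named cDC1 were set beside them. Mgl2, a lectin gene of cDC2, was at 26.9 and 42.5 CPM (counts scaled to a common library size) in the disputed pre-cDC2 libraries and at 18.1 CPM in replicate 3. In the 3 libraries with cDC1 in the file name it was at 0.0434, 0 and 0.351 CPM. Sirpa was at 1144 and 1659 CPM in the disputed libraries, at 604 CPM in replicate 3, and at 38.1, 86.5 and 131 CPM in the libraries with cDC1 in the file name. The heat shock gene Hspa1a was at 356 and 378 CPM in the disputed libraries and at 309 CPM in replicate 3, against 1.52, 0.0615 and 0 CPM in the libraries with cDC1 in the file name. For these 3 genes each pre-cDC2 library lay above every library with cDC1 in the file name. Other markers did not separate them: Clec9a was at 145 and 117 CPM in the disputed libraries, 220 CPM in replicate 3 and 139 to 207 CPM in the libraries with cDC1 in the file name, and Il1r2 at 475 and 574, 1198, and 361 to 804 CPM. These levels were not used to place any library.

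The 6 libraries held 27468492 to 33804139 counts, so depth differed little between the groups. On principal components of all expressed genes, the first axis (33.7% of the variance) placed CDP at -82.1 to -65.7 and pre-cDC2 at 45.7 to 61.7. On the second axis (15.8%), pre-cDC1 lay at 72.9 to 83, cDC2 at -64.4 to -56.2, and the 3 pre-cDC2 libraries between them at -6, -23.2 and 26. Replicate 3 was thus the pre-cDC2 library nearest to pre-cDC1. Among 12253 genes tested, 2710 (22.1%) passed an adjusted p of 0.05 in edgeR's quasi-likelihood test, 1620 of them higher (13.2%) and 1090 lower (8.9%) in pre-cDC2 than in CDP. A change of at least 4-fold was reached by 446 of the higher and 112 of the lower genes. Scaling by library totals alone shifted the median log2 fold change of all genes from 0.01 to -0.13 and gave 1285 higher and 1856 lower genes. With replicate 3 alone, 13111 genes were tested and 1399 (10.7%) were called, 879 higher (6.7%) and 520 lower (3.97%). Of the 2710 genes, 2703 kept their sign, 1222 were also called in the same direction, and 0 were called in the opposite one. In bulk libraries, fewer cells of a type and less RNA per cell cannot be told apart.

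**Figure D1:**
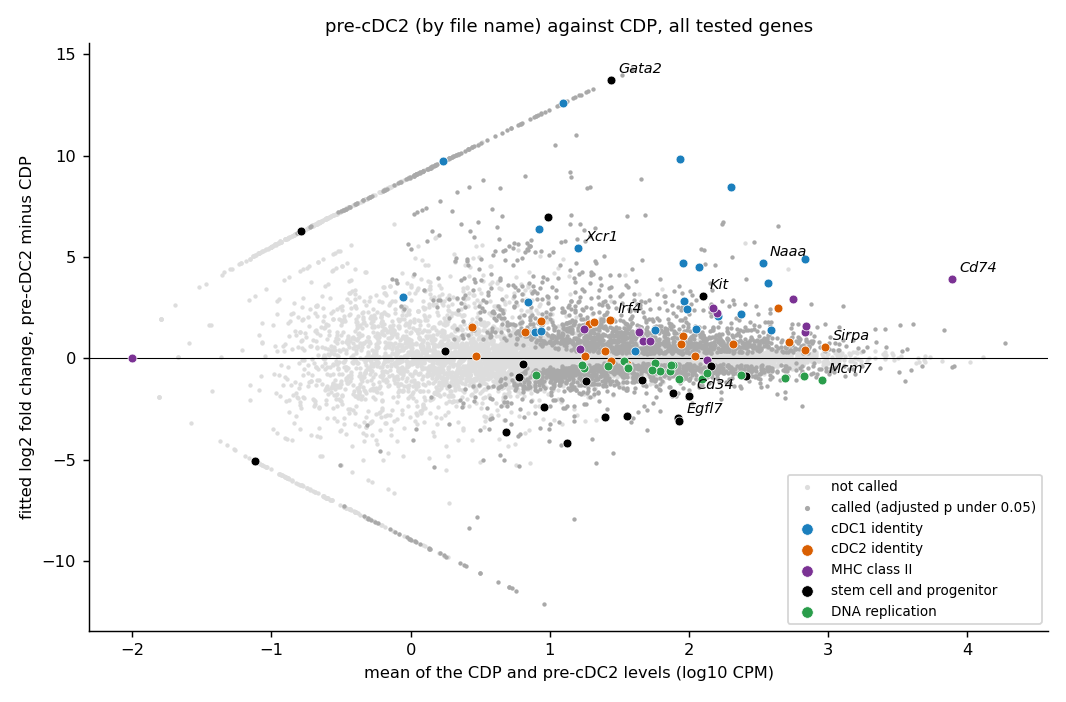
Each point is a gene, with the mean of the CDP and pre-cDC2 levels on the x axis (log10 CPM) and the fitted log2 fold change, pre-cDC2 minus CDP, on the y axis; coloured points are members of 5 gene lists. Points on the outer diagonals have 0 counts in 1 group, so their height depends on the fit and is no bound; 22 of 23 genes of cDC1 identity and 12 of 14 of MHC class II were called above the zero line, and 14 of 20 of DNA replication below it.

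Genes that mark cDC1 rose almost as a block in the cells named pre-cDC2, and genes that mark cDC2 rose less. Of 23 tested genes of the cDC1 identity list, 22 were higher than in CDP and 0 lower, with a median log2 fold change of 3.05 against 0.01 over all genes; with replicate 3 alone, 21 were higher. Of 19 tested genes of the cDC2 identity list, 9 were higher and 0 lower, with a median of 0.70. With replicate 3 alone the median was 0.40, against -0.02 over all genes. That fit holds a single pre-cDC2 library, and fewer genes were called in it, both in this list and over all genes. The summed level of the cDC1 list was 684 to 744 CPM in CDP and 4272, 4777 and 7739 CPM in pre-cDC2, against 6835 to 8200 CPM in pre-cDC1. The summed level of the cDC2 list was 2138 to 2853 CPM in CDP and 3928, 5051 and 3524 CPM in pre-cDC2, against 10095 to 10694 CPM in cDC2. Replicate 3 therefore had the highest sum of cDC1 genes and the lowest sum of cDC2 genes among the pre-cDC2 libraries.

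Xcr1, the chemokine receptor that defines cDC1 (chr9:123852315-123862029, GRCm38.p6), was at 0.261, 0.535 and 1.36 CPM in CDP and at 22.3, 29.1 and 42.8 CPM in pre-cDC2. No library overlapped between the groups, and the log2 fold change was 5.46 ± 0.55 (SE, n = 3 and 3, edgeR adjusted p = 2.15e-05), or 5.88 with replicate 3 alone. Clec9a, the cDC1 receptor for actin of dead cells, was at 40.7, 14.2 and 13.7 CPM in CDP and at 145, 117 and 220 CPM in pre-cDC2. It rose by a log2 fold change of 2.84 ± 0.45 (edgeR adjusted p = 0.000687), or 3.26 with replicate 3 alone, although the libraries of each group spread widely. Naaa, which encodes a lipid amidase, went from 24.7, 22.1 and 30.2 CPM to 493, 528 and 946 CPM, a log2 fold change of 4.69 ± 0.28 (edgeR adjusted p = 3.51e-07), or 5.19 with replicate 3 alone. Itgae, encoding the integrin CD103 of mature cDC1, was at 0 CPM in all CDP libraries and at 21.4, 14.3 and 39.1 CPM in pre-cDC2, at least 762-fold higher against a floor of 3 counts over the CDP group. The toll-like receptor gene Tlr3, which senses double-stranded RNA, was at 0, 0.569 and 0 CPM in CDP and at 133, 109 and 280 CPM in pre-cDC2. Cd8a was the tested cDC1-list gene that was not called, detected in 1 pre-cDC2 library at 4.68 CPM and at 0 in the others. Against pre-cDC1 itself, 0 of the 23 genes were higher in pre-cDC2 and 1 was lower, Rab7b (log2 fold change -0.69, edgeR adjusted p = 0.0466), and 0 were called with replicate 3 alone. With all 3 libraries 0 of the 23 were higher and 7 lower at an unadjusted edgeR p under 0.05, and DESeq2 called 0 higher and 4 lower. In replicate 3 Xcr1, Clec9a and Naaa lay within or above the pre-cDC1 range of 37.2 to 43.3, 166 to 204 and 805 to 1022 CPM, and in replicates 1 and 2 they lay below it.

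Sirpa, the inhibitory receptor used to sort cDC2 (chr2:129591042-129632228, GRCm38.p6), did not pass the test. It was at 676, 700 and 979 CPM in CDP and at 1144, 1659 and 604 CPM in pre-cDC2. Replicates 1 and 2 lay above every CDP library and replicate 3 below them, and the log2 fold change was 0.56 ± 0.30 (edgeR adjusted p = 0.205), or -0.39 with replicate 3 alone. In pre-cDC1 it was at 186 to 206 CPM, and the difference between pre-cDC2 and pre-cDC1 passed the test (log2 fold change 2.56, edgeR adjusted p = 0.0014). The macrophage galactose lectin gene Clec10a was at 38.1, 54.8 and 81.6 CPM in CDP and at 110, 152 and 103 CPM in pre-cDC2. Its libraries did not overlap, with a log2 fold change of 1.09 ± 0.28 (edgeR adjusted p = 0.0154), but 0.82 and not called with replicate 3 alone. Mgl2, its neighbour in the lectin family, was at 5.46, 10.2 and 11.7 CPM in CDP against the pre-cDC2 values given above, a log2 fold change of 1.70 ± 0.40 (edgeR adjusted p = 0.00911). Its log2 fold change was 0.98 with replicate 3 alone and was not called. Cd209a, encoding a DC-SIGN homologue, was at 3.95, 1.84 and 5.75 CPM in CDP and at 12.8, 15.2 and 12.3 CPM in pre-cDC2, a log2 fold change of 1.83 ± 0.47 (edgeR adjusted p = 0.0148). The decoy interleukin 1 receptor gene Il1r2 went from 81, 126 and 193 CPM to 475, 574 and 1198 CPM, a log2 fold change of 2.51 ± 0.38 (edgeR adjusted p = 0.000533), and was the cDC2-list gene still called with replicate 3 alone. It was at 634 to 1182 CPM in pre-cDC1, and the difference between the precursors was not called (log2 fold change -0.16, edgeR adjusted p = 0.895). Itgam, Tmem176a, Cd300a, Clec4a1 and Irf4 were the other higher members, at log2 fold changes of 0.70 to 1.90. The calls of Clec10a, Cd209a, Itgam and Clec4a1 were each lost without CDP replicate 1 and without CDP replicate 2. Those of Clec10a, Itgam and Clec4a1 were also lost without pre-cDC2 replicate 2, and that of Itgam without pre-cDC2 replicate 1. Against pre-cDC1, 10 of the 19 genes were higher and 0 lower (4 and 0 with replicate 3 alone), beside 270 of all genes higher (2.2%) and 33 lower (0.269%).

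**Figure D2:**
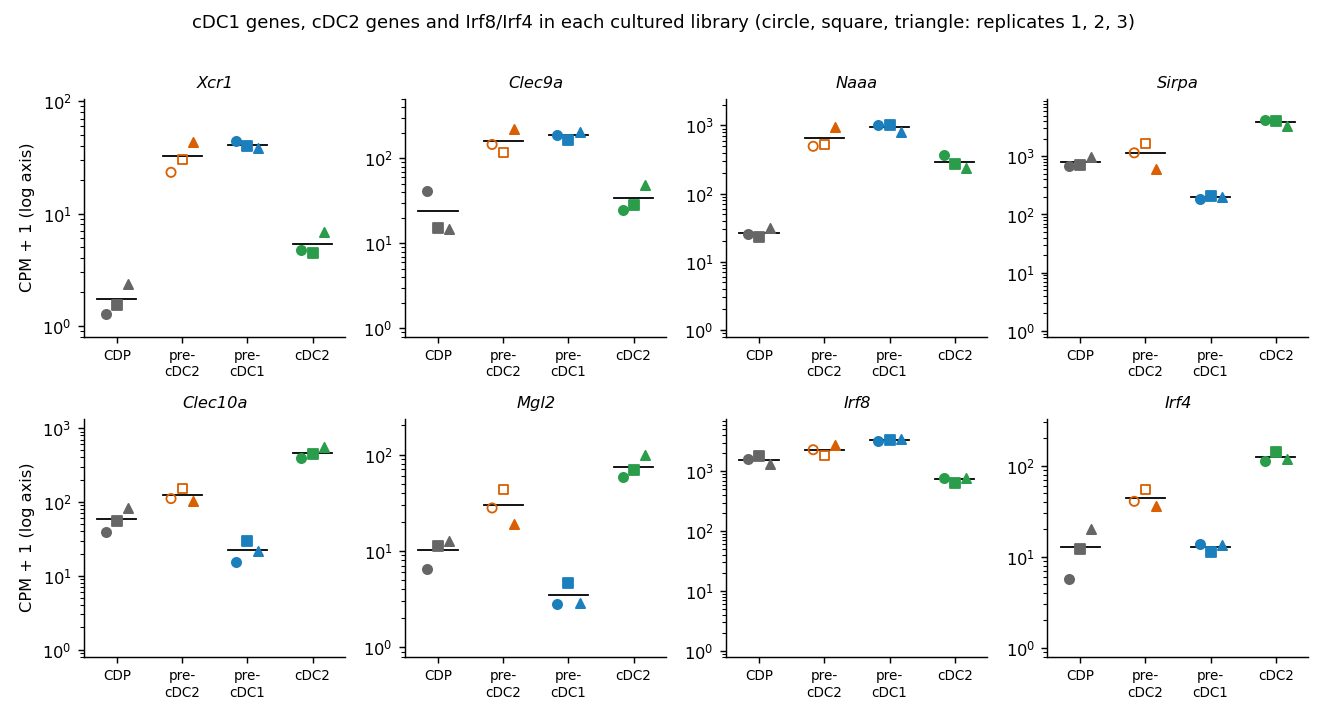
Levels of 3 cDC1 genes, 3 cDC2 genes, Irf8 and Irf4 in each library (CPM + 1, log axis), with circles, squares and triangles for replicates 1, 2 and 3, open symbols for the libraries titled cDC1 and black bars for group means. The cDC1 genes Xcr1, Clec9a and Naaa are above CDP in every pre-cDC2 library, whereas Sirpa in replicate 3 (604 CPM) is below all 3 CDP libraries.

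Both Irf8 and Irf4 were higher in pre-cDC2 than in CDP. Irf8 (chr8:120736358-120756694, GRCm38.p6), which encodes the factor that cDC1 need most, was at 1612, 1784 and 1302 CPM in CDP and at 2291, 1813 and 2749 CPM in pre-cDC2. The groups did not overlap, but replicate 2 lay close to the highest CDP library, and the log2 fold change was 0.57 ± 0.15 (edgeR adjusted p = 0.0158), or 0.80 with replicate 3 alone. In pre-cDC1 it was at 3226 to 3471 CPM and in cDC2 at 644 to 786 CPM, and its difference between pre-cDC2 and pre-cDC1 was not called (log2 fold change -0.54, edgeR adjusted p = 0.083). The Irf8 call was lost without CDP replicate 3 and without pre-cDC2 replicate 3. Irf4 (chr13:30749233-30766981, GRCm38.p6), encoding the factor of cDC2, was at 4.64, 11.3 and 19.2 CPM in CDP and at 39.7, 53.7 and 35.3 CPM in pre-cDC2. Every pre-cDC2 library was above every CDP library and above the pre-cDC1 range of 10.4 to 12.7 CPM, with a log2 fold change of 1.90 ± 0.49 against CDP (edgeR adjusted p = 0.0151). The log2 fold change of Irf4 with replicate 3 alone was 1.58 and was not called (edgeR adjusted p = 0.164), and against pre-cDC1 it was 1.87 (edgeR adjusted p = 0.0695). The Irf4 call was also lost without CDP replicate 2 and without pre-cDC2 replicate 2.

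Of 37 tested transcription factors of dendritic cell development, 18 were higher and 4 lower than in CDP, with a median log2 fold change of 0.44; with replicate 3 alone, 16 were higher and 4 lower. Zbtb46, the factor that marks conventional dendritic cells against other myeloid cells, was at 13.1, 22.7 and 6.33 CPM in CDP and at 110, 109 and 137 CPM in pre-cDC2. It rose by a log2 fold change of 3.10 ± 0.38 (edgeR adjusted p = 0.000111), or 3.28 with replicate 3 alone. Id2, an inhibitor of E proteins, went from 24.2, 25.4 and 25.8 CPM to 47.6, 52.9 and 56 CPM, a log2 fold change of 1.08 ± 0.09 (edgeR adjusted p = 5.62e-06). Bcl6, a transcriptional repressor, was 1.60 higher on the log2 scale, Batf3, the partner of IRF8 in cDC1, 1.29, and Relb of the NF-κB pathway 1.57. Cebpb, a factor of myeloid and inflammatory genes, was at 37.6, 49.3 and 40.1 CPM in CDP and at 188, 446 and 90.3 CPM in pre-cDC2, against 11.3 to 13.6 CPM in pre-cDC1. It was called against both stages, at log2 fold changes of 2.54 against CDP and 4.31 against pre-cDC1, and its levels differed widely between the 3 pre-cDC2 libraries. The 4 lower factors were Runx2, Mef2c, Tcf4 and Ikzf1. Runx2, which acts in plasmacytoid dendritic cells, fell from 848, 873 and 643 CPM to 264, 207 and 130 CPM, a log2 fold change of -1.95 ± 0.34 (edgeR adjusted p = 0.00154). Klf4 and Zeb2, factors known to act in cDC2 development in mice, were not called. Klf4 was at 16.4 to 18.2 CPM in CDP and 14.9 to 22.1 CPM in pre-cDC2. Zeb2 was at 389 to 494 CPM in CDP and at 297, 332 and 134 CPM in pre-cDC2, but higher than in pre-cDC1, where it was at 15.9 to 66.5 CPM (log2 fold change 2.65, edgeR adjusted p = 0.00785).

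Of 30 tested cytokine and growth factor receptors, 16 were higher and 0 lower; with replicate 3 alone, 9 were higher and 2 lower, Notch1 and Il17ra. Scaling by library totals gave 14 higher and 2 lower. Kit, the receptor of stem cell factor, was at 38.4, 25.4 and 17.3 CPM in CDP and at 210, 187 and 275 CPM in pre-cDC2, a log2 fold change of 3.07 ± 0.24 (edgeR adjusted p = 4.08e-06), or 3.34 with replicate 3 alone. The groups stood far apart, and cultured MDP held 172 to 208 CPM, so the CDP libraries were the lowest of these 3 stages. Tested subunit genes of the GM-CSF and interleukin 3 receptors rose. Csf2rb, the shared beta chain, went from 162, 193 and 173 CPM to 608, 626 and 567 CPM, a log2 fold change of 1.80 ± 0.12 (edgeR adjusted p = 1.17e-06). Csf2rb2, a mouse paralogue of Csf2rb that shares reads with it and is uncertain for that reason, rose by 2.10, and Csf2ra by 1.32. Flt3, the receptor of the cytokine in the culture, was at 69, 72.9 and 71.2 CPM in CDP and at 75.4, 80.5 and 89.8 CPM in pre-cDC2. Although the libraries did not overlap, its log2 fold change of 0.23 was not called (edgeR adjusted p = 0.0793). Csf1r, the macrophage colony-stimulating factor receptor, was not called either, at 95.1 to 101 CPM in CDP and 59.8 to 108 CPM in pre-cDC2. Notch2, the receptor that mouse splenic cDC2 depend on, rose by 0.62 ± 0.11 on the log2 scale (edgeR adjusted p = 0.00192), and its DNA-binding partner Rbpj by 0.98 ± 0.17 (edgeR adjusted p = 0.00144). Of 12 tested Notch pathway genes, 3 were higher and 2 lower, and the same counts stood with replicate 3 alone.

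Genes of MHC class II presentation rose together. Of 14 tested, 12 were higher and 0 lower, with a median log2 fold change of 1.33; with replicate 3 alone, 11 were higher. Cd74, the invariant chain that guards the class II groove, was at 740, 928 and 1280 CPM in CDP and at 12332, 12717 and 18771 CPM in pre-cDC2. The lowest pre-cDC2 library lay far above the highest CDP library, with a log2 fold change of 3.92 ± 0.21 (edgeR adjusted p = 1.81e-07), or 4.25 with replicate 3 alone. Ciita, the coactivator that switches on class II genes (chr16:10480014-10531064, GRCm38.p6), went from 107, 141 and 153 CPM to 996, 904 and 1091 CPM, a log2 fold change of 2.92 ± 0.15 (edgeR adjusted p = 1.77e-07). H2-DMb1 and H2-DMb2, chains of the peptide exchanger H2-M, rose by 2.23 ± 0.10 and 2.49 ± 0.11 on the log2 scale (edgeR adjusted p = 6.67e-08 and 5.92e-08), from 55.5, 55.8 and 60.5 CPM to 229, 257 and 304 CPM for H2-DMb1. These copies are nearly identical, so the division of reads between them is uncertain. The classical chains moved less: H2-Aa went from 31.9, 32.3 and 36.2 CPM to 54.3, 63.1 and 62.7 CPM, a log2 fold change of 0.87 ± 0.10 (edgeR adjusted p = 8.94e-05). H2-Ab1 rose by 0.84, H2-Eb1 by 1.33, H2-Oa by 1.43, H2-Ob by 1.28 and H2-DMa by 1.32. H2-Aa, H2-Ab1 and H2-Eb1 each have a single RefSeq transcript, and held 0.438, 1.31 and 0.796 counts per base of it on average. Genes with a single transcript had a 99th percentile of 1.02 counts per base, against 6.79 for genes with 2 to 4 transcripts and 12.1 for those with 5 or more. H2-DMb1, also with a single transcript, held 3.44 counts per base, and whether the low counts of such genes bear on their fold changes was not tested. The cathepsin gene Ctss, which trims the invariant chain, rose by 1.62 ± 0.14, and Lgmn, another protease of the pathway, was not called at 130 to 146 CPM in CDP and 105 to 154 CPM in pre-cDC2. H2-Eb2 was at 0 counts in all 6 libraries. Against pre-cDC1, 0 of the 14 were called by edgeR with all 3 libraries or with replicate 3 alone. With all 3 libraries 2 were higher and 3 lower at an unadjusted p under 0.05, and DESeq2 called 1 higher and 1 lower.

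The class II promoters carry a conserved module, the X and Y boxes, which CIITA reads through the proteins bound there. The 250 bases upstream of the start of 3 class II genes are shown because an X-box core lies beside a Y-box core in each (RefSeq, GRCm38.p6, plus strand). They span chr17:34305617-34305866 for H2-Eb1, chr17:34152941-34153190 for H2-DMb1 and chr17:34238655-34238904 for H2-Ob. The first run of capitals in each sequence marks the X-box core and the second the Y-box core; in H2-Eb1 the last run marks a Y-box core on the reverse strand.
H2-Eb1: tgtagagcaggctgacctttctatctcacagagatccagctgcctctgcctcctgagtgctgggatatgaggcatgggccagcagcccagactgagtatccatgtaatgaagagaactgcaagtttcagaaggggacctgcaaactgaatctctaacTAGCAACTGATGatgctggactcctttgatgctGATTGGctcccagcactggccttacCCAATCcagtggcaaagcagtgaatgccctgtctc
H2-DMb1: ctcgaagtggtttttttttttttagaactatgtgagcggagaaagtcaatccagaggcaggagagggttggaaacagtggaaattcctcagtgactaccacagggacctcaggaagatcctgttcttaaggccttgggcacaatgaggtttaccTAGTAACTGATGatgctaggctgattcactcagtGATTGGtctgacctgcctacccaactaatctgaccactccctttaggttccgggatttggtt
H2-Ob: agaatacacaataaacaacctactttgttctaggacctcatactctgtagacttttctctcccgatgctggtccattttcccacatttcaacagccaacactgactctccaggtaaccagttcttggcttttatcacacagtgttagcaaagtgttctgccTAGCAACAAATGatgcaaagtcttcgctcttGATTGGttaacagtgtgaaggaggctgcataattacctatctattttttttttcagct
The X-box core was searched as TAGNNACNNATG and the Y-box core as GATTGG, both on either strand. The X-box core was found in 3 of the 11 class II genes with a promoter in the table and in 131 of all 32851 promoters (0.399%). The Y-box core was found in 8 of the 11 and in 4783 of all promoters (14.6%), so it is common by itself. The X and Y cores were separated by 21 bases in H2-Eb1, 22 in H2-DMb1 and 19 in H2-Ob. H2-DMb1 rose by 2.23, H2-Eb1 by 1.33 and H2-Ob by 1.28 on the log2 scale, and H2-DMb2 rose by 2.49 with no match to the X-box letters in this window. A match is a description of the letters and not of a bound factor.

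Of 17 tested MHC class I genes, 7 were higher and 1 was lower (Canx, a chaperone, -0.49 on the log2 scale); with replicate 3 alone, 6 were higher. Tap1, a subunit of the peptide transporter, went from 149, 150 and 150 CPM to 373, 323 and 464 CPM, a log2 fold change of 1.39 ± 0.11 (edgeR adjusted p = 4.08e-06). It was lower than in pre-cDC1 (542 to 627 CPM, log2 fold change -0.56, edgeR adjusted p = 0.0173).

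Of 18 tested genes of dendritic cell maturation, 7 were higher and 2 lower; with replicate 3 alone, 5 were higher and 1 was lower. Cd83, a surface protein that stabilises class II, was at 9.31, 8.8 and 14.7 CPM in CDP and at 414, 442 and 863 CPM in pre-cDC2, a log2 fold change of 5.73 ± 0.33 (edgeR adjusted p = 3.31e-07), or 6.29 with replicate 3 alone. Cd86, a costimulator of T cells, went from 6.54, 7.16 and 8.69 CPM to 44.7, 49.8 and 57.5 CPM, a log2 fold change of 2.79 ± 0.27 (edgeR adjusted p = 1.76e-05). Ccr7, the receptor that guides mature dendritic cells to lymph nodes, moved the other way, from 66.1, 68.9 and 71.1 CPM to 10.5, 8.82 and 3.92 CPM. Its log2 fold change was -3.12 ± 0.32 (edgeR adjusted p = 2.53e-05), or -4.14 with replicate 3 alone. It was at 106 to 177 CPM in cDC2 but at 4.84 to 7.5 CPM in pre-cDC1. The difference of Ccr7 between the precursors was not called (log2 fold change 0.35, edgeR adjusted p = 0.662). Cd83 and Cd86 were not called between them either, at log2 fold changes of -0.48 and -0.20. The other lower member was Marcksl1, at a log2 fold change of -0.33, and Nfkb2, an NF-kB subunit gene, was among the higher ones at 1.17. The cytokine gene Il12b was detected in pre-cDC2 replicate 3 alone, at 0.643 CPM. Of 21 tested chemokine and adhesion receptors, 9 were higher and 5 lower, and 6 and 4 with replicate 3 alone. Ccr6, a chemokine receptor, was at 13.9, 12.4 and 5.65 CPM in CDP and at 0 in all 3 pre-cDC2 libraries, at least 321-fold lower against a floor of 3 counts over the group; with replicate 3 alone it was not called. The integrin gene Itgax, which encodes CD11c, rose by 0.96 ± 0.10 on the log2 scale (edgeR adjusted p = 3.69e-05), while Cxcr4, a bone marrow retention receptor, fell by 1.0.

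**Figure D3:**
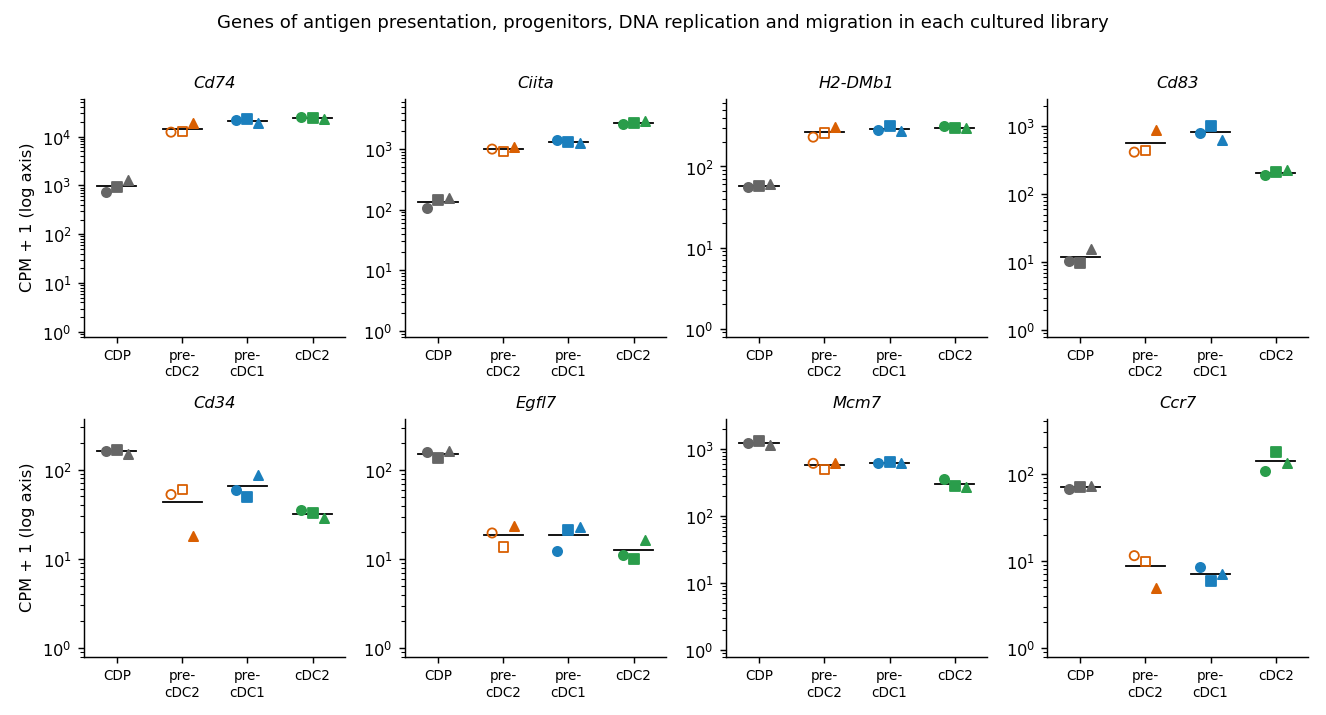
Levels of 8 genes in each library (CPM + 1, log axis), with symbols as in the plot of cDC1 and cDC2 genes. Cd74, Ciita, H2-DMb1 and Cd83 are higher in every pre-cDC2 library than in CDP and Cd34, Egfl7, Mcm7 and Ccr7 lower, with Cd34 lowest in replicate 3 at 16.8 CPM.

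Genes of stem and progenitor cells fell. Of 21 tested, 12 were lower and 3 higher, with a median log2 fold change of -1.13; with replicate 3 alone, 9 were lower and 2 higher. Egfl7, a secreted factor gene of stem cells and endothelium, went from 158, 137 and 164 CPM to 18.7, 12.7 and 22.4 CPM, a log2 fold change of -3.07 ± 0.28 (edgeR adjusted p = 9.83e-06). Cd34, the sialomucin of progenitors (chr1:194938821-194961292, GRCm38.p6), was at 162, 165 and 149 CPM in CDP and at 51.5, 59.2 and 16.8 CPM in pre-cDC2, a log2 fold change of -1.87 ± 0.36 (edgeR adjusted p = 0.00263). Replicate 3 was far below the other two, and the log2 fold change with it alone was -3.25. Myb, which drives progenitor proliferation, went from 163, 147 and 135 CPM to 24.7, 24.5 and 7.34 CPM, a log2 fold change of -2.94 ± 0.55 (edgeR adjusted p = 0.00243). Cdk6, a kinase of the early cell cycle, fell from 115, 116 and 123 CPM to 40.1, 35.6 and 30.3 CPM, a log2 fold change of -1.71 ± 0.20 (edgeR adjusted p = 8.21e-05). Cd27, Sox4, Adgrg1, Hoxa9, Bex6, Cd93, Hoxa7 and Lmo2 were the other lower members. The 3 that rose were Kit, Ctla2a and Gata2. Gata2, a factor of stem cells that is also central to mast cells and basophils, was at 0 in all CDP libraries and at 44.3, 96.9 and 23.4 CPM in pre-cDC2.

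Some genes of the plasmacytoid dendritic cell list fell and others rose, with a median log2 fold change of 0.02 against 0.01 over all genes. Of 19 tested genes of that list, 5 were lower and 2 higher, and with replicate 3 alone 7 were lower and 1 was higher. Cox6a2, a mitochondrial subunit gene typical of plasmacytoid cells, went from 12.5, 10.7 and 10.9 CPM to 1.03, 0.643 and 0.812 CPM, a log2 fold change of -3.74 ± 0.36 (edgeR adjusted p = 1.48e-05). Tcf4, the master factor of that lineage, fell from 1058, 996 and 818 CPM to 666, 658 and 343 CPM, a log2 fold change of -0.76 ± 0.24 (edgeR adjusted p = 0.0399), or -1.49 with replicate 3 alone. Siglech, its sorting marker, fell by 0.85 and Atp1b1 by 1.44 on the log2 scale. Irf7, another gene of the list, rose from 34.8, 37.2 and 34.1 CPM in CDP to 96.5, 122 and 125 CPM in pre-cDC2. The log2 fold change of Irf7 was 1.72 ± 0.30 (edgeR adjusted p = 0.00135), or 1.81 with replicate 3 alone. The calls of Tcf4 and Siglech were lost without CDP replicate 1 and without pre-cDC2 replicate 3, that of Tcf4 also without CDP replicate 2 and that of Siglech without pre-cDC2 replicate 1. Against pre-cDC1, 4 of the 19 were higher in pre-cDC2 (1 with replicate 3 alone), Siglech among them (log2 fold change 1.31, edgeR adjusted p = 0.0109).

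Most genes of the DNA replication list fell, and 0 of the mitosis list were called against CDP. Of 20 replication genes, 14 were lower and 0 higher, with a median log2 fold change of -0.59; with replicate 3 alone 7 were lower, and with library totals 17. Mcm7, a subunit of the replicative helicase, was at 1218, 1311 and 1167 CPM in CDP and at 612, 498 and 615 CPM in pre-cDC2, a log2 fold change of -1.07 ± 0.11 (edgeR adjusted p = 3.09e-05). The other called helicase subunits, Mcm2, Mcm3, Mcm4, Mcm5 and Mcm6, had log2 fold changes of -0.96 to -0.33. E2f1, a factor that starts S phase, fell from 120, 120 and 103 CPM to 52.3, 60.2 and 55.7 CPM, a log2 fold change of -1.0 ± 0.12 (edgeR adjusted p = 9.16e-05). Of 18 mitosis genes, 0 were called in edgeR with all 3 libraries or with replicate 3 alone, and the median log2 fold change with all 3 was 0.05. At an unadjusted p under 0.05, 2 of them were higher and 0 lower, and DESeq2 called 1 higher. Mki67, the Ki-67 proliferation antigen, was at 110, 99.7 and 107 CPM in CDP and at 113, 95.6 and 119 CPM in pre-cDC2, groups that overlap. Outside the list, 4 mitotic genes, chosen after their values were seen, were called higher than in both CDP and pre-cDC1: Prc1, Cenpa, Cenpl and Cdc25b, at log2 fold changes of 0.46 to 0.79 against CDP. Prc1, which bundles spindle microtubules, was at 753, 784 and 986 CPM in CDP and at 1498, 1085 and 1594 CPM in pre-cDC2 (log2 fold change 0.75, edgeR adjusted p = 0.0149), and was the one of the 4 still called against CDP with replicate 3 alone. Against pre-cDC1, 5 of these 18 were higher in pre-cDC2, among them the kinase gene Aurka (log2 fold change 0.86, edgeR adjusted p = 0.0429) and the spindle gene Nusap1 (0.81, edgeR adjusted p = 0.0493), and 0 with replicate 3 alone. Of 12 cell cycle inhibitors and D cyclins, 8 were higher and 1 was lower, but 3 were higher with library totals and 2 with replicate 3 alone. Btg2, an antiproliferative gene, rose by 1.29 ± 0.12 (edgeR adjusted p = 1.07e-05), and Ccnd2, cyclin D2, fell from 84.2, 90.5 and 92.3 CPM to 40.7, 31.2 and 36.4 CPM. Of 18 nucleolar genes, 5 were lower and 0 higher, with the lowest adjusted p for Npm1 at -0.63 ± 0.08 (edgeR adjusted p = 0.000199), but 1 was lower with replicate 3 alone and 9 with library totals.

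**Figure D4:**
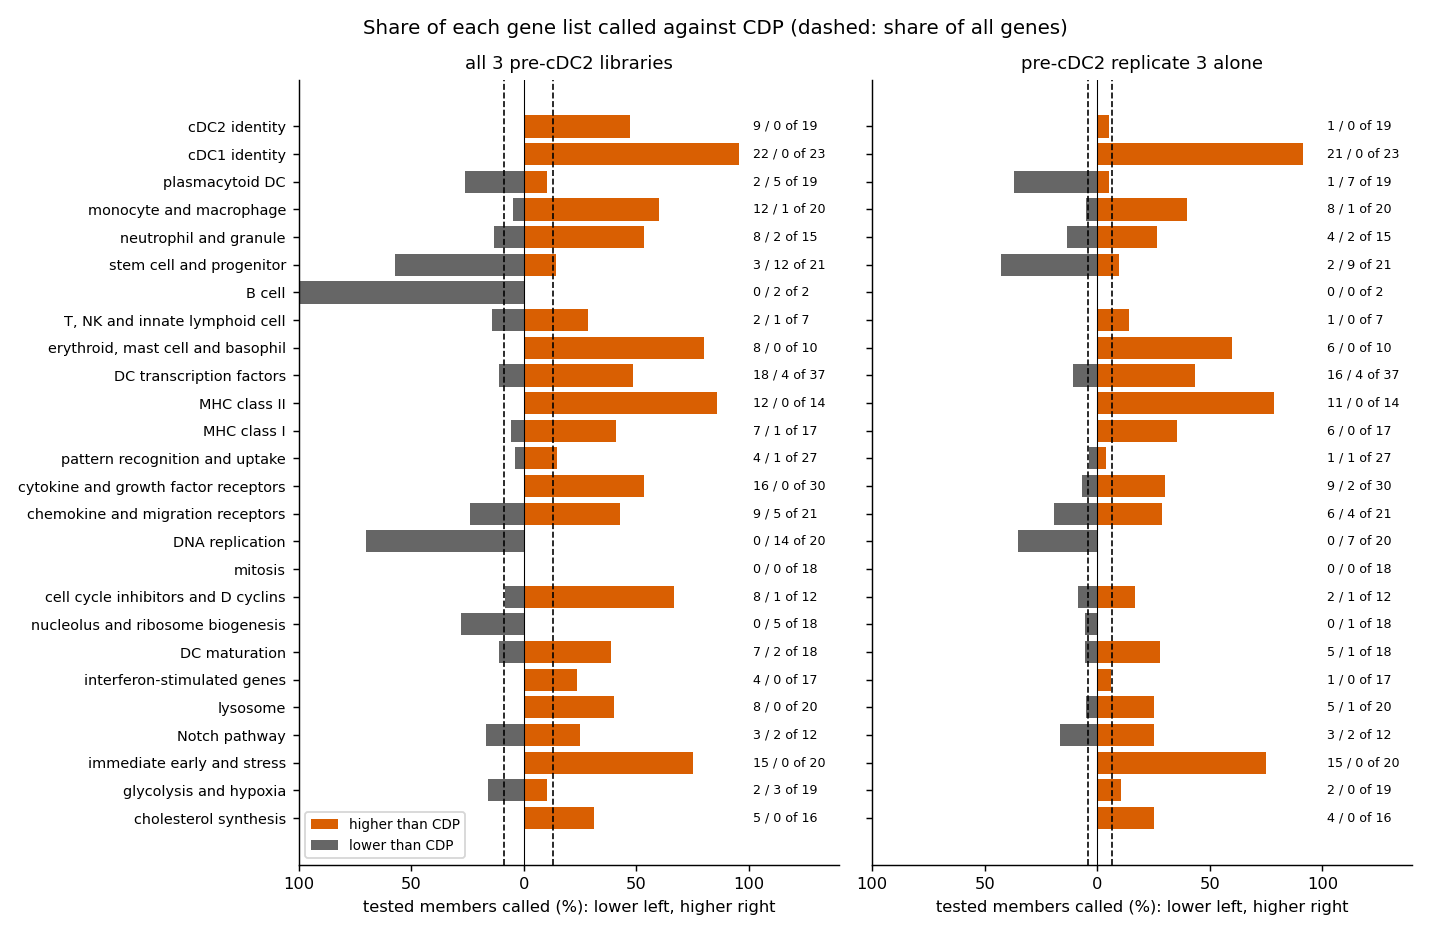
Share of each list's tested members called higher (right) or lower (left) than in CDP, in percent, with all 3 pre-cDC2 libraries and with replicate 3 alone; numbers give the higher, the lower and the tested members, and dashed lines the share of all genes. The cDC1 list (22 of 23 higher) had a median log2 fold change of 3.05, or 3.26 with replicate 3 alone. The cDC2 list (9 of 19 higher) had a median of 0.70, or 0.40 with replicate 3 alone. Over all genes, too, the share called was smaller with replicate 3 alone.

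Immediate early and stress genes were higher. Of 20 tested, 15 were higher and 0 lower, with a median log2 fold change of 2.35, and 15 with replicate 3 alone. Hspa1a, an inducible chaperone of the HSP70 family, was at 0.686, 5.08 and 4.17 CPM in CDP and at 356, 378 and 309 CPM in pre-cDC2, a log2 fold change of 6.74 ± 0.70 (edgeR adjusted p = 2.64e-05). Its levels were 327 to 401 CPM in pre-cDC1 but 1.25 to 3.9 CPM in cDC2 and 3.93 to 16.5 CPM in MDP, so both precursor stages stood apart from the others. Hspa1b, a nearly identical copy that shares its reads, rose by 6.61. The growth factor response gene Fos went from 5.49, 8.73 and 3.46 CPM to 49.8, 52.7 and 43.4 CPM, a log2 fold change of 3.07 ± 0.35 (edgeR adjusted p = 5.38e-05). Nr4a1, an orphan nuclear receptor gene induced by signalling, went from 3.33, 6.52 and 5.04 CPM to 39.4, 37.2 and 42.4 CPM, a log2 fold change of 3.02 ± 0.32 (edgeR adjusted p = 3.17e-05). Against pre-cDC1, Hspa1a, Fos and Nr4a1 were not called (log2 fold changes of -0.02, -0.10 and 0.23).

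Lists of metabolism, uptake and the interferon response varied in the share of genes called. Over all genes, 13.2% were called higher and 8.9% lower. Of 20 lysosomal genes 8 were higher and 0 lower, and with replicate 3 alone 5 were higher and 1 was lower; Psap, which encodes sphingolipid activators, rose by 0.78 ± 0.12 (edgeR adjusted p = 0.000434). Of 16 genes of cholesterol synthesis 5 were higher and 0 lower, and 4 with replicate 3 alone. Of 19 genes of glycolysis and hypoxia 2 were higher and 3 lower, near the share of all genes, and 2 and 0 with replicate 3 alone. Of 27 pattern recognition and uptake genes 4 were higher and 1 was lower, also near the share of all genes. Their median log2 fold change was nevertheless 1.32, against 0.01 over all genes, or 0.85 with replicate 3 alone. At an unadjusted edgeR p under 0.05, 12 of the 27 were higher and 1 was lower, and DESeq2 called 7 higher and 1 lower. Of 17 interferon-stimulated genes 4 were higher and 0 lower, with a median log2 fold change of 2.45, but 0.43 with replicate 3 alone. At an unadjusted edgeR p under 0.05, 10 of the 17 were higher and 0 lower, and DESeq2 called 5 higher and 0 lower. The lower gene of the pattern recognition and uptake list was Sting1, an adaptor in the sensing of cytosolic DNA. It fell from 652, 692 and 612 CPM to 397, 291 and 308 CPM (log2 fold change -0.95 ± 0.14, edgeR adjusted p = 0.000458).

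Markers of macrophages, neutrophils, mast cells and basophils were higher in pre-cDC2 than in CDP. Of 20 monocyte and macrophage genes, 12 were higher and 1 was lower, Cd163; the median log2 fold change was 3.91, or 2.95 with the 7 genes that had 0 counts in 1 group set at their bound. With replicate 3 alone, 8 were higher and 1 was lower. The summed level of this list was 606 to 1130 CPM in CDP, 1906, 3309 and 1322 CPM in pre-cDC2, 320 to 352 CPM in pre-cDC1 and 921 to 1094 CPM in cDC2. Apoe, a lipid carrier abundant in macrophages, was at 7.65, 11.5 and 9.76 CPM in CDP and at 560, 1561 and 479 CPM in pre-cDC2, a log2 fold change of 6.52 ± 0.67 (edgeR adjusted p = 2.52e-05), or 5.63 with replicate 3 alone. It was highest in replicate 2 and at 8.26 to 23 CPM in pre-cDC1. Vcan, a matrix proteoglycan gene of monocytes, was at 0 in all CDP and pre-cDC1 libraries and at 37.9, 53.2 and 18.5 CPM in pre-cDC2, at least 1106-fold higher than in CDP against a floor of 3 counts. The complement genes C1qb and C1qc were at least 365-fold and 179-fold higher on the same floor.

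Of 15 neutrophil and granule genes, 8 were higher and 2 lower, and with replicate 3 alone 4 were higher and 2 lower. S100a9, an alarmin of neutrophils, was at 0, 0 and 0.582 CPM in CDP and at 23.9, 160 and 85.6 CPM in pre-cDC2 (log2 fold change 8.83 ± 1.85, edgeR adjusted p = 0.00478). The early granule genes Ctsg and Prtn3 were the 2 lower members, at log2 fold changes of -2.03 and -1.62. The list's summed level was 113 to 145 CPM in CDP and 152, 439 and 226 CPM in pre-cDC2, against 12.9 to 28.8 CPM in pre-cDC1. Of 10 tested genes of erythroid cells, mast cells and basophils, 8 were higher and 0 lower, and 6 with replicate 3 alone; the median log2 fold change was 8.42, or 8.35 with the 4 genes that had 0 counts in 1 group at their bound. All 8 were mast cell or basophil genes, and the globin genes Hba-a1 and Hba-a2 and the carbonic anhydrase gene Car1 were at 0 in all 6 libraries. Cpa3, a mast cell protease gene, was at 0, 0 and 0.323 CPM in CDP and at 37.8, 50.6 and 27.7 CPM in pre-cDC2, a log2 fold change of 8.45 ± 1.32 (edgeR adjusted p = 0.000667). Fcer1a, the IgE receptor chain, was at least 317-fold higher on a floor of 3 counts, at 10.3, 15.9 and 5.31 CPM against 0. The summed level of the list was 2.74 to 4.65 CPM in CDP, 189, 346 and 121 CPM in pre-cDC2, 1.73 to 16.6 CPM in pre-cDC1 and 126 to 285 CPM in cDC2.

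Replicate 2 had the highest sum of all 3 lists, and replicate 3 the lowest for macrophage genes and for mast cell and basophil genes. Replicates 1 and 2, which had the higher sums of cDC2 genes, also had the higher sums of macrophage genes and of mast cell and basophil genes, and the part of such cells in the cDC2 counts was not tested. Several lymphoid markers were at 0 in all 6 libraries. Among them were the B cell genes Ms4a1, Pax5, Ebf1, Rag1, Rag2 and Fcmr and the T and NK cell genes Cd3g, Ncr1, Gzma, Prf1 and Eomes. Others were detected: Cd79b was at 34.6, 40.7 and 49.6 CPM in CDP and at 19.7, 14.9 and 15.2 CPM in pre-cDC2. Gzmb was at 0 in CDP and at 17, 23 and 11.6 CPM in pre-cDC2, and Tbx21 at 0 to 0.736 and at 3.82 to 9.39 CPM. Nkg7 was lower, at 5.45 to 7.98 CPM in CDP and at 0.237 to 1.04 CPM in pre-cDC2. Lck, not called, was at 3.49 to 13.9 and at 0 to 1.36 CPM. Of 2 tested B cell genes both were lower (0 with replicate 3 alone), among them Blk, at least 27.4-fold lower on a floor of 3 counts, a call that no fit without 1 of the 6 libraries kept. Of 7 tested T, NK and innate lymphoid genes 2 were higher and 1 was lower, and 1 and 0 with replicate 3 alone.

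**Figure D5:**
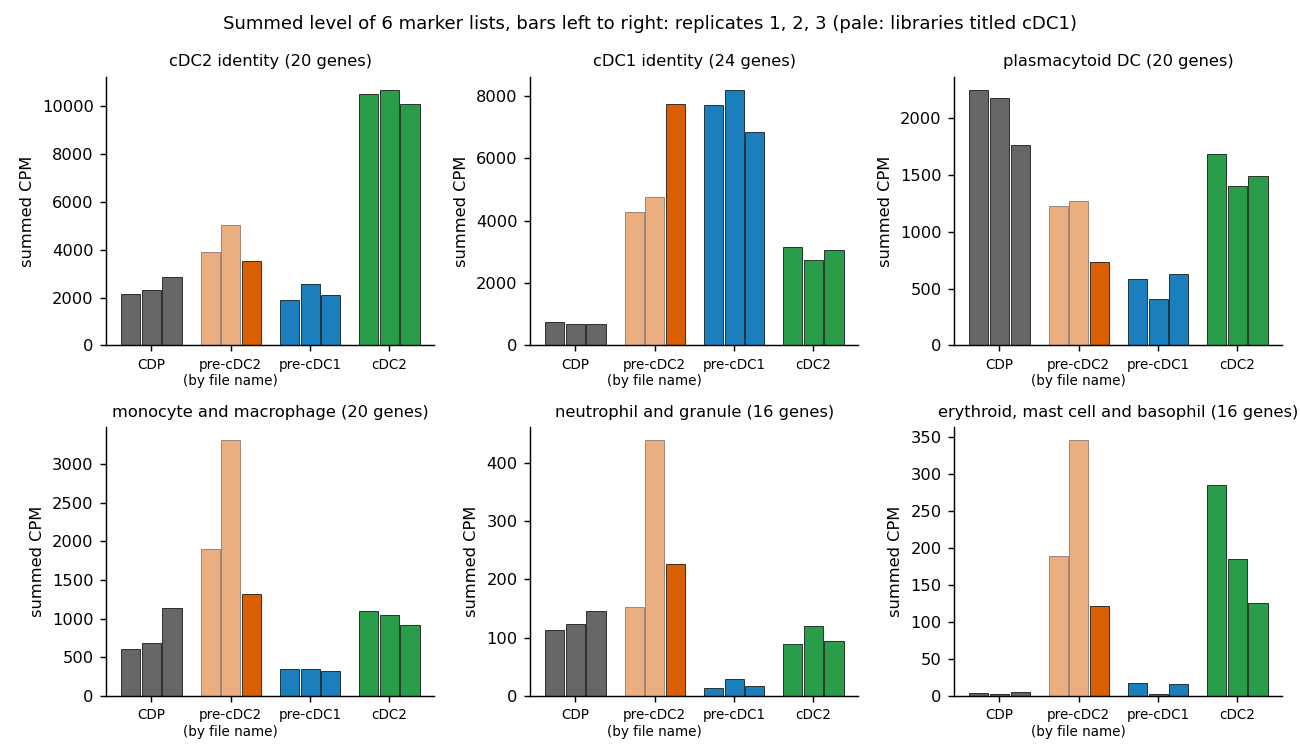
Summed CPM of 6 marker lists in each library, with bars from left to right for replicates 1, 2 and 3 of CDP, pre-cDC2 (pale for the libraries titled cDC1), pre-cDC1 and cDC2; each axis starts at 0. The cDC1 sum of pre-cDC2 replicate 3 (7739 CPM) is within the pre-cDC1 range, and the sums of macrophage, neutrophil and mast cell lists are highest in pre-cDC2 replicate 2.

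The largest rises, among called genes with groups that did not overlap and a higher mean of at least 10 CPM, were Cyp11a1, Sema4f, Gata2, Wnt11, Egr2 and Vcan, all at 0 in every CDP library. Cyp11a1, the enzyme that starts steroid synthesis and is also found in mast cells and basophils, was at 84.4, 117 and 35 CPM in pre-cDC2, at least 2386-fold higher against a floor of 3 counts over the CDP group. It was at 55.4 to 134 CPM in cDC2 and at 0.499 to 3.61 CPM in pre-cDC1. Sema4f, a semaphorin gene, was at 31.2, 38.8 and 129 CPM in pre-cDC2 and at 44 to 161 CPM in pre-cDC1, and Wnt11, a Wnt ligand, at 16.8, 36.4 and 70.1 CPM and at 22.6 to 50.3 CPM. Egr2, an immediate early factor, was at 23.3, 70.3 and 20.2 CPM in pre-cDC2. Cyp11a1, Gata2 and Vcan were thus lowest in replicate 3 and called higher than in pre-cDC1, while Sema4f and Wnt11 were highest in replicate 3 and not called against pre-cDC1. The largest falls by the same rule were Rapgef3, Dab2ip, Ccr6, Serpina3g, Dnajc6 and Drc7. Rapgef3, an exchange factor that senses cyclic AMP, was at 15.5, 23.6 and 15.5 CPM in CDP and at 0 in every pre-cDC2 library, at least 548-fold lower against a floor of 3 counts. Its call was lost without CDP replicate 2 and without any 1 of the pre-cDC2 libraries. With replicate 3 alone, Serpina3g and Drc7 were called among these 6. Drc7, a subunit of the dynein regulatory complex of cilia, was at 32.4, 27.1 and 29.9 CPM in CDP and at 0.333, 0 and 0 CPM in pre-cDC2.

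Against pre-cDC1, its sister precursor, pre-cDC2 differed at 303 of 12253 genes (2.47%), and with replicate 3 alone at 56 of 13111 (0.427%), 40 higher (0.305%) and 16 lower (0.122%). Of the 1620 genes higher than in CDP, 97 were also higher than in pre-cDC1 and 6 were lower. Of the 1090 genes lower than in CDP, 14 were also lower than in pre-cDC1 and 23 were higher. Kit, Zbtb46, Egfl7 and Mcm7 were not called between the precursors, at log2 fold changes of -0.30, -0.22, 0.02 and -0.11. The count of 303 shifted when single libraries were left out, which also leaves fewer samples. It was 160, 175 and 224 without pre-cDC1 replicates 1, 2 and 3, and 189, 125 and 388 without pre-cDC2 replicates 1, 2 and 3. Higher genes held 10 of 19 tested cDC2 genes, 8 of 20 monocyte and macrophage genes, 6 of 15 neutrophil genes and 3 of 10 mast cell and basophil genes; with replicate 3 alone these were 4, 4, 2 and 0. Besides those already given, the fractalkine receptor gene Cx3cr1 was at 29, 33.9 and 15.8 CPM in pre-cDC2 and at 3.41 to 4.99 CPM in pre-cDC1 (log2 fold change 2.62, edgeR adjusted p = 0.000756), while CDP held 26 to 34.6 CPM. The granulocyte colony-stimulating factor receptor gene Csf3r was at 30.5, 52.4 and 17.8 CPM in pre-cDC2 and at 0 in all pre-cDC1 libraries. The Fc receptor gene Fcgr3 was at 73.7, 104 and 41.9 CPM in pre-cDC2, at 6.54 to 10.2 CPM in CDP and at 6 to 11.5 CPM in pre-cDC1, and was called against both. Replicate 3 was the lowest pre-cDC2 library for Cx3cr1, Csf3r and Fcgr3, and still lay above every pre-cDC1 library.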

How the data were processed

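Per the labels' protocols, amplified cDNA (SMART-Seq HT) was made into Nextera XT libraries; neither kit marks the strand or adds molecular identifiers, so antisense and overlapping genes cannot be separated. The authors deposited expected counts for each gene in the RSEM format, per the file headers. STAR 2.7.7a, Picard 2.25.0, RSEM 1.3.3 and the builds GRCm38 and mm10 stand in the submitters' processing notes, with no order; duplicate removal and the annotation are not given in the sources used here.

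The expected counts of 21000 genes were rounded (22 to 51 values a library were not whole). The test was edgeR 4.0.16 (R 4.3.3, limma 3.58.1): a quasi-likelihood F test on 15 cultured wild-type libraries (pre-cDC2 by file name, CDP, MDP, pre-cDC1 and cDC2) with TMM, filterByExpr and group alone as the term. P-values were Benjamini-Hochberg adjusted over all genes tested at a threshold of 0.05. CPM are TMM-scaled over 18 cultured libraries of 22549395 to 38343160 counts. The SE of a log2 fold change is its size over the root of the F statistic. With replicate 3 alone, that library is assumed to vary like the other groups. Folds against 0 counts use a floor of 3 counts over the group and, like depth, cover counting error only.

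The members and 26 gene lists were chosen with earlier results of these data known. Genes named were a marker panel, the 6 largest rises and falls (non-overlapping, at least 10 CPM) and the 4 members (or fewer) per list with the lowest adjusted p, plus further members to account for those not called. Gene positions and promoters come from RefSeq on GRCm38.p6. The edgeR test of pre-cDC2 against CDP was checked on simulated counts. It recovered 7 of 50 genes changed 1.5-fold, 19 of 50 changed 2-fold, 45 of 50 changed 4-fold and 43 of 50 changed 8-fold. It also called 7 unchanged genes. A gene that was not called may therefore still differ by 2-fold. The simulation changed far fewer genes than were called in the data, and how this bears on recovery was not tested. Replicates within a group differed by more than sampling noise. Alternatives were DESeq2 1.42.0, other scalings and filters, other sets of libraries and pre-cDC2 assigned by title. Some genes of the lists are counted but not reported here by name.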

Additional observations from a re-analysis of the deposited data

How the results depend on the processing

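Against CDP, 2710 genes were called. The count was 3492 with DESeq2, 3141 with library totals, 2288 with only the groups compared, 3058 with pre-cDC2 by title, 1399 with pre-cDC2 replicate 3 alone, 1715 with replicates 1 and 2 of every group, and 1879 to 2258 when each library was left out in turn. Against pre-cDC1, 303 genes were called. The count was 954 with DESeq2, 76 with only the groups compared, 56 with pre-cDC2 replicate 3 alone and 6 with pre-cDC2 by title. Leaving out each library in turn gave 125 to 388, with 125 without pre-cDC2 replicate 2 (titled cDC1), 160 and 175 without pre-cDC1 replicates 1 and 2, and 189 without pre-cDC2 replicate 1. The cause of these shifts was not tested; leaving out libraries or groups leaves fewer samples.

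By title, pre-cDC2 would hold libraries whose files are named cDC1, and 5 of 116 called named genes then turned in sign, none of them called: the log2 fold change against CDP was -0.09 for Cd300a, -0.73 for Clec10a, -0.01 for Itgam, -0.57 for Mgl2 and 0.04 for Pdk1. Of the 116, 81 kept their call in every alternative in which they had a result, which was 17 for most genes and 16 for some. In every alternative that left out 1 library, 100 kept it. Of 11 named genes not called, 7 were called under at least 1 alternative; Sirpa was one, without pre-cDC2 replicate 3 and with replicates 1 and 2 of every group.

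Same-numbered pre-cDC2 and CDP libraries hardly deviated together, at correlations of 0.028, 0.013 and 0.012. These were still the highest, as differently numbered libraries gave -0.024 to 0.01. The numbers were not taken to pair the libraries. With a replicate block, 2519 genes were called against CDP and 204 against pre-cDC1. Depth limits genes near 0: a gene at 0 counts in a group was not detectable at this depth, and its fold is a bound.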
